A study of Mus musculus with 12 samples.

Results

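Arc, Npas4 and 8 genes whose transcripts are raised by synaptic activity were followed in the prefrontal cortex of mice after repeated cocaine. The 10 genes, Arc, Npas4, Homer1, Nptx2, Nrn1, Vgf, Scg2, Inhba, Ptgs2 and Pcsk1, were chosen by name from 40508 gene names in the deposited tables, and all 10 were listed in each of the 3 tables. The animals were 10-week-old male C57BL/6 mice (C57BL/6 J in the methods) that had received daily injections of cocaine or, as controls, of saline, and the tissue (frontal association, prelimbic and orbital cortex) was taken 2 h, 24 h or 7 d after the last one. Each of the 6 groups (saline control and cocaine at 2 h, at 24 h and at 7 d) gave 2 RNA-seq libraries, each from the pooled cortex of 5 mice, so that 12 libraries stood for 60 animals. The authors deposited 1 table per time point with 1 FPKM (fragments scaled by the length of the transcript and the number of mapped fragments) per group, pooled over its 2 libraries. The column headers give the time but do not spell out the treatment. Which column is saline was taken from the study's own supplementary listing, whose saline and cocaine values could be read for 24 h only. The same column order was taken for 2 h and 7 d. The paper reports Nr4a1 as persistently increased, and this assignment places Nr4a1 higher in cocaine at each time point. Every direction given here rests on that assignment. A comparison therefore set 1 value against 1 value: no spread between replicates could be computed and no test was made. The paper gives the reads per library only as a range, so the number of reads behind a single value is not known. In tissue RNA of this kind, a change in RNA per cell and a change in the number of expressing cells cannot be told apart.

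When a neuron fires, calcium entry and cAMP activate kinases that act on factors already bound at their genes, and a first wave of transcripts appears within minutes without new protein. Npas4 and Arc belong to this first wave. Npas4 is a transcription factor of neurons that pairs with Arnt2 and acts on genes of inhibitory and excitatory synapses, and Arc is a cytoplasmic protein that promotes the removal of AMPA-type glutamate receptors from synapses. The other genes encode effectors, most of them induced more slowly. Homer1 makes a postsynaptic scaffold and, from the same gene, a short form that loosens it. Nptx2 is a secreted pentraxin that clusters AMPA receptors, and Nrn1 is a surface-anchored protein that promotes neurite and spine growth. Vgf and Scg2 are cargo of dense-core vesicles, where Pcsk1 cuts prohormones into peptides. Inhba is a subunit of activin, and Ptgs2 is the inducible cyclooxygenase of prostaglandin synthesis.

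Promoter windows of 6 of the 10 genes were present in the RefSeq table used here (GRCm38.p6; 250 bases before to 50 after a start, 7 windows in all). Arc, Nptx2, Nrn1 and Vgf had no window and were not searched. One route from cAMP and calcium to these genes runs through CREB, whose site is the cAMP response element (CRE). The half-site of the CRE, TGACG or CGTCA on the printed strand, was searched on both strands. It stood in the windows of Npas4, Homer1 (the first of 2 starts), Scg2, Pcsk1 and Ptgs2, and in 20.8% of the 32851 windows of the whole table. The full palindrome TGACGTCA, which holds both overlapping half-sites, was found in Scg2 and Pcsk1 and in 1.79% of all windows. Neither the AP-1 site TGANTCA (7.81% of all windows) nor the CArG box (1.63%) was found in the windows of these genes. The windows of 4 genes are printed 5′ to 3′ on the strand of the gene with the CRE half-sites in capitals: Npas4 and Homer1, which were higher in cocaine at 2 h, and Scg2 and Pcsk1, which hold the full element. Such matches describe letters and not occupied sites.
Npas4, chr19:4989922-4990221, minus strand: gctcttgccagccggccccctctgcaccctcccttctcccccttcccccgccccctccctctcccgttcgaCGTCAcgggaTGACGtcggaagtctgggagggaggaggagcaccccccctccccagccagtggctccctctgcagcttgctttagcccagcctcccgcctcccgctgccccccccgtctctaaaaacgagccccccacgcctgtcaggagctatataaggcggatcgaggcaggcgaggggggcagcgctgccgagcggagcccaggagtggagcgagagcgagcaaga
Homer1, chr13:93303507-93303806, plus strand: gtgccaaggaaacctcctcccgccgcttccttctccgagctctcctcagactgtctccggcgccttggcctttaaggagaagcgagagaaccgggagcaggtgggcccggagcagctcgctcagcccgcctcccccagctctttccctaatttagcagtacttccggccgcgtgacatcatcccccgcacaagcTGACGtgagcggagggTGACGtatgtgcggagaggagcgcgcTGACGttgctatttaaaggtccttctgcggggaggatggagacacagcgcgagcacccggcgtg
Scg2, chr1:79439977-79440276, minus strand: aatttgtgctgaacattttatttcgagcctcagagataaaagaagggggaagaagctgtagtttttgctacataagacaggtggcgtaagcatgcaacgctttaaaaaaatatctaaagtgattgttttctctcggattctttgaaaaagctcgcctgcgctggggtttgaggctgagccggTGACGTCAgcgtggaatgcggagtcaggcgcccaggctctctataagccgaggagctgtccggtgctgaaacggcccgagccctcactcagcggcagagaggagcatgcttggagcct
Pcsk1, chr13:75089607-75089906, plus strand: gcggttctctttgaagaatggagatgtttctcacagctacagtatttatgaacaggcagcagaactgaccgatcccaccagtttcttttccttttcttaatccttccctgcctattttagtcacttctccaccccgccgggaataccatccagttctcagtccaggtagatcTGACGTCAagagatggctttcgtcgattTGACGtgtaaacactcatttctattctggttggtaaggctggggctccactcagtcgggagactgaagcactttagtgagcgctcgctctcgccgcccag

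Levels in FPKM are scaled by transcript length and could be ordered between genes within a table. In saline at 2 h the order ran from Nrn1 (211 FPKM) through Vgf (81.5), Scg2 (52.9), Homer1 (35.7), Nptx2 (19.2), Pcsk1 (6.92), Inhba (6.43), Arc (5.59) and Ptgs2 (3.49) to Npas4 (1.15). Neighbours such as Pcsk1, Inhba and Arc lay close together, and whether they differ beyond the spread between libraries could not be judged. Nrn1 and Vgf held the first and second places and Ptgs2 and Npas4 the last ones in all 6 groups. Arc was the gene that changed place most, from place 8 of 10 in saline at 2 h to place 3 in cocaine. At 24 h it held place 5 in saline and place 3 in cocaine, and at 7 d place 8 and place 5. The plot of levels shows Arc as the gene with the widest gap between the groups.

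**Figure D1:**
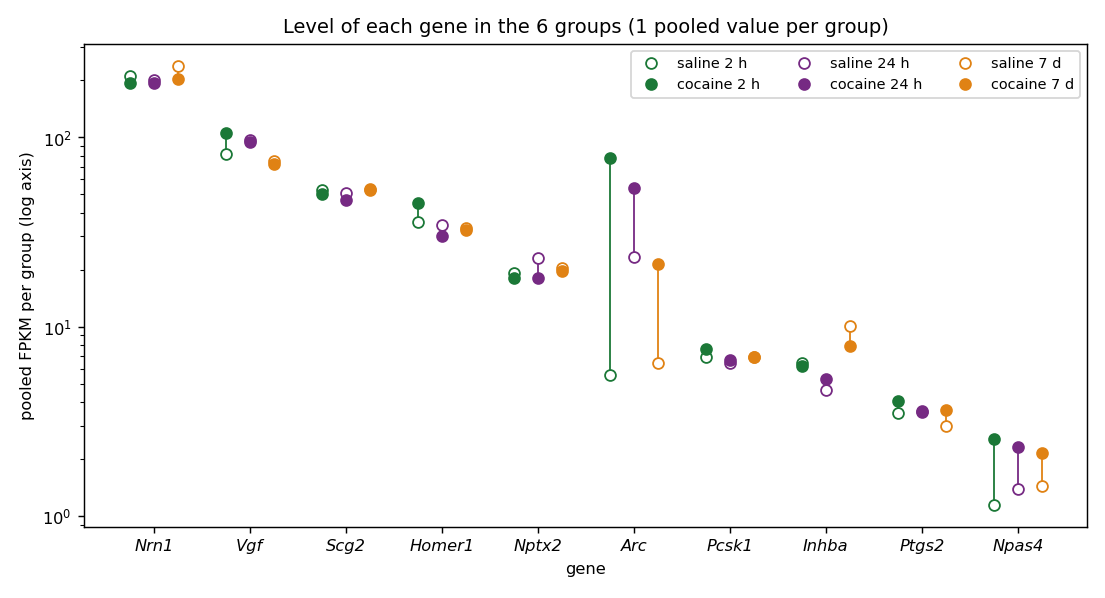
Pooled FPKM of each gene (log axis) in the 6 groups, with open circles for saline, filled circles for cocaine, 1 colour per time point and a line joining the groups of 1 time point; there are no replicate values and so no error bars. Arc spans 5.59 to 77.8 FPKM, while Scg2 stays between 46.8 and 53.5.

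At 2 h, cocaine was at least 1.5-fold above saline for 2 of the 10 genes, Arc and Npas4, and for 2.26% of all 13683 loci with a mean of at least 1 FPKM. None of the 10 was lower by that fold, and in either direction 3.93% of the loci passed it. Both genes also passed 2-fold, against 0.804% of the loci. At least 25% above saline were 4 genes, with Homer1 and Vgf added, against 7.45% of the loci. For none of the 10 was saline at least 25% above cocaine, against 5.8%. The median log2 ratio (cocaine over saline) of the 10 genes was 0.18 at 2 h and that of all loci 0.02. It was 0.05 for the 8 genes other than Arc and Npas4, whose log2 ratios lay between -0.13 and 0.37.

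Only Arc and Npas4 passed 1.5-fold at 24 h, again as higher in cocaine, against 1.59% of 14124 loci, and in either direction 2.85% of the loci passed. Only Arc was 2-fold higher, against 0.722%. A difference of 25% was passed by no further gene above saline (2 of 10, against 4.46%) and by Nptx2 below it (1 of 10, against 3.94%). At 7 d Arc alone was at least 1.5-fold higher, against 1.41% of 13787 loci, and none was lower, with 3.52% of the loci past the fold in either direction. Arc was also the 1 gene past 2-fold, against 0.624%. Arc and Npas4 were at least 25% above saline, against 5.63% of the loci, and Inhba was below it by that measure (1 of 10, against 8.38%). Npas4 lay just short of the fold at 7 d with a ratio of 1.49. The median log2 ratio of the 10 genes was -0.01 at 24 h and -0.03 at 7 d, beside 0.01 and -0.01 for all loci. Without Arc and Npas4 the medians were -0.04 at both time points. The genes above saline by any amount numbered 6 of 10 (2 h), 5 (24 h) and 4 (7 d), near the shares of all loci above saline, 56.1%, 53.1% and 47.6%.

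**Figure D2:**
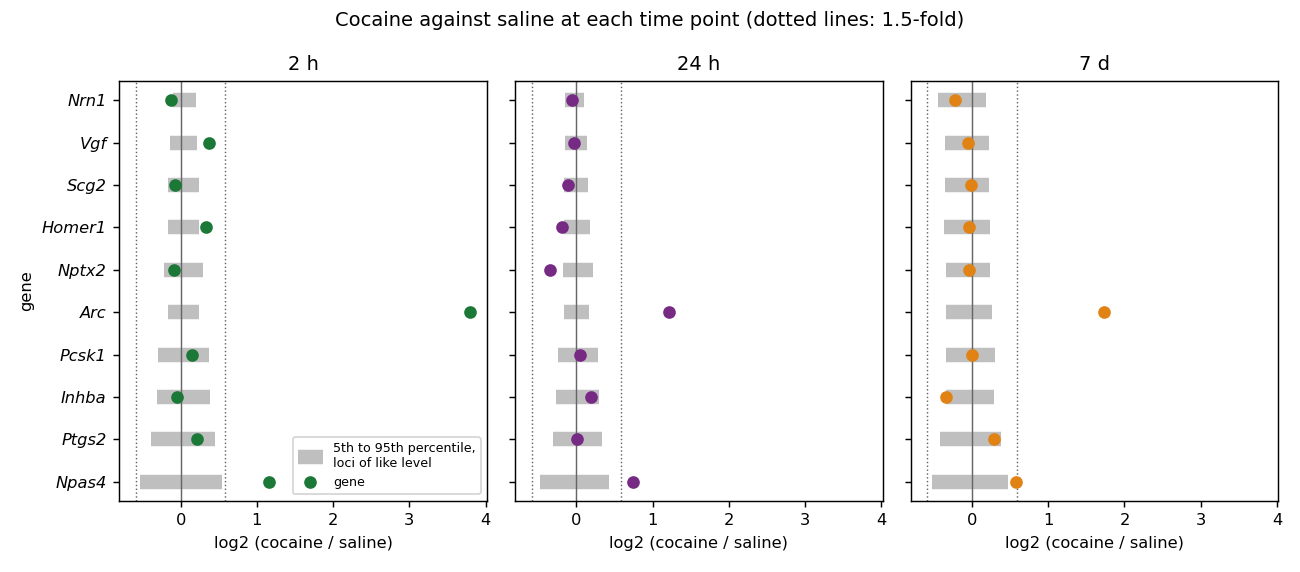
Log2 ratio of cocaine over saline for each gene (points) at 2 h, 24 h and 7 d, with grey bars for the 5th to 95th percentile of all loci within 2-fold of the gene's mean FPKM and dotted lines at 1.5-fold. Arc and Npas4 lie above their bars at each time point, and Homer1 and Vgf do so at 2 h. Nrn1 at 2 h and Homer1 and Nptx2 at 24 h lie below theirs, and Inhba at 7 d lies on the lower edge.

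Arc (chromosome 15, 74669083 to 74672570 of GRCm38) stood at 5.59 FPKM in saline against 77.8 in cocaine at 2 h, at 23.2 against 54.1 at 24 h, and at 6.47 against 21.6 at 7 d. Cocaine was higher at each time point, by ratios of 13.9, 2.33 and 3.33. The log2 ratios of 3.80, 1.22 and 1.74 compare with a 5th to 95th percentile of -0.17 to 0.24, -0.16 to 0.17 and -0.34 to 0.26 among loci within 2-fold of its mean FPKM. Counted from the top of all loci, Arc held rank 5 of 13683 at 2 h, rank 80 of 14124 at 24 h and rank 42 of 13787 at 7 d. The difference in level was largest at 2 h (72.2 FPKM), then 30.9 FPKM (24 h) and 15.1 FPKM (7 d), although the ratio at 24 h was below that at 7 d.

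The saline level of Arc itself differed between the tables. At 24 h it was 4.15 times that at 2 h and 3.59 times that at 7 d, and it exceeded the cocaine level of 7 d. The tables of the time points were normalized separately, so such ratios are between tables, but the median log2 ratio of all genes between saline at 24 h and at 2 h was 0.02. Of 13942 genes compared between these saline groups, 2.26% were at least 1.5-fold higher at 24 h, and Arc held rank 46 from the top. It was the only one of the 10 genes past that fold in this comparison. In cocaine the order was another one, with the highest level at 2 h and those at 24 h and 7 d at 0.696 and 0.277 of it. The Arc ratio of 24 h was thus taken against the highest of the 3 saline levels.

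Npas4 (chromosome 19, 4984355 to 4989971) was the scarcest of the 10 genes, at 1.15 FPKM in saline against 2.55 in cocaine (2 h), 1.38 against 2.32 (24 h) and 1.44 against 2.15 (7 d). The 3 cocaine values all lay above the 3 saline values, although the time points were normalized separately and are not replicates of each other. The ratios were 2.23, 1.68 and 1.49, the log2 ratios 1.16, 0.74 and 0.58. Ratios scatter more at so low a level: among loci within 2-fold of its mean FPKM the 5th to 95th percentile was -0.54 to 0.54 at 2 h, -0.47 to 0.43 at 24 h and -0.52 to 0.47 at 7 d. In these ranges of level 8.14%, 5.80% and 6.55% of loci differed by 1.5-fold or more in either direction. Unlike Arc, Npas4 had a saline level that varied by no more than 1.26-fold between tables. With a pseudocount of 1 FPKM its log2 ratios were 0.73, 0.48 and 0.37.

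Homer1 (chromosome 13, 93303614 to 93413403) was higher in cocaine at 2 h, at 35.7 FPKM against 44.9, a ratio of 1.26. Saline stood at 34.5 against 30.3 for cocaine at 24 h, and at 33.4 against 32.6 at 7 d. The log2 ratio of 0.33 at 2 h lay above the 95th percentile of loci of like level (0.24), that of -0.19 at 24 h below the 5th (-0.17), and that of -0.03 at 7 d inside the range. Saline levels differed by only 1.07-fold over the 3 tables. The FPKM sums all transcripts of the gene, so the activity-induced short form and the long scaffold forms cannot be told apart.

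Of the proteins that act at the synapse from outside, neither Nptx2 nor Nrn1 was above saline at any time point. Nptx2 (chromosome 5, 144545887 to 144557478) stood at 19.2 FPKM in saline against 18.1 in cocaine (2 h), 23.1 against 18.1 (24 h) and 20.4 against 19.8 (7 d). Its cocaine level hardly moved between 2 h and 24 h, and the log2 ratio of -0.35 at 24 h came with the highest of its saline levels. That log2 ratio lay below the 5th percentile of loci of like level (-0.17). Nrn1 (chromosome 13, 36725620 to 36734477) was the most abundant of the 10, at 211 FPKM in saline against 193 in cocaine (2 h), 201 against 195 (24 h) and 239 against 205 (7 d). Its log2 ratios were -0.13, -0.05 and -0.22. The first lay just below the 5th percentile of loci of like level (-0.10), and the last lay inside the range, which reached down to -0.45 at 7 d.

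Among the dense-core vesicle genes, Vgf (chromosome 5, 137025201 to 137033798) was higher in cocaine at 2 h, at 81.5 FPKM against 105, a ratio of 1.29. It stood at 97.1 FPKM against 95.1 (24 h) and at 75.4 against 72.8 (7 d), where the groups lay close together. Its log2 ratio of 0.37 at 2 h exceeded the 95th percentile of loci of like level (0.21). Between the separately normalized tables, the saline level of Vgf at 24 h was 1.19 times that at 2 h and 1.29 times that at 7 d, so that saline alone spanned a fold about as large as the one between the groups at 2 h. Scg2 (chromosome 1, 79434669 to 79440120) stood at 52.9 FPKM in saline against 50.1 in cocaine (2 h), 50.7 against 46.8 (24 h) and 53.5 against 52.9 (7 d). It was the steadiest of the 10 genes, with a highest level 1.14 times the lowest over the 6 groups. Pcsk1 (chromosome 13, 75089428 to 75135198) stood at 6.92 FPKM in saline against 7.68 in cocaine (2 h), 6.44 against 6.66 (24 h) and 6.95 against 6.96 (7 d), with log2 ratios of 0.15, 0.05 and 0.00. Every log2 ratio of Scg2 and Pcsk1 lay within the 5th to 95th percentile of loci of like level.

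Ptgs2 (chromosome 1, 150100031 to 150108227) stood at 3.49 FPKM in saline against 4.06 in cocaine (2 h), 3.56 against 3.59 (24 h) and 2.98 against 3.65 (7 d). The log2 ratios of 0.22, 0.01 and 0.29 were inside the range of loci of like level at each time point. Inhba was listed on a pair of loci with the same span (chromosome 13, 15779782 to 16031604 at 2 h), in which RefSeq also places further genes, among them a pseudogene that overlaps Inhba. The kit did not keep strand, so the reads of overlapping genes cannot be told apart and the values of Inhba are uncertain. At the locus with the higher FPKM, saline stood at 6.43 FPKM against 6.23 in cocaine (2 h), 4.64 against 5.31 (24 h) and 10.0 against 7.93 (7 d). At the other locus saline stood at 1.73 against 1.28, 1.95 against 1.31 and 1.93 against 2.23, in the same order. The log2 ratios of the first and the other locus were -0.04 and -0.43 (2 h), 0.19 and -0.58 (24 h), and -0.34 and 0.21 (7 d), with opposite signs at 24 h and 7 d. At 7 d the first locus lay on the edge of the range of loci of like level (5th percentile -0.34), and its saline level was 2.16 times that at 24 h, in tables normalized separately.

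**Figure D3:**
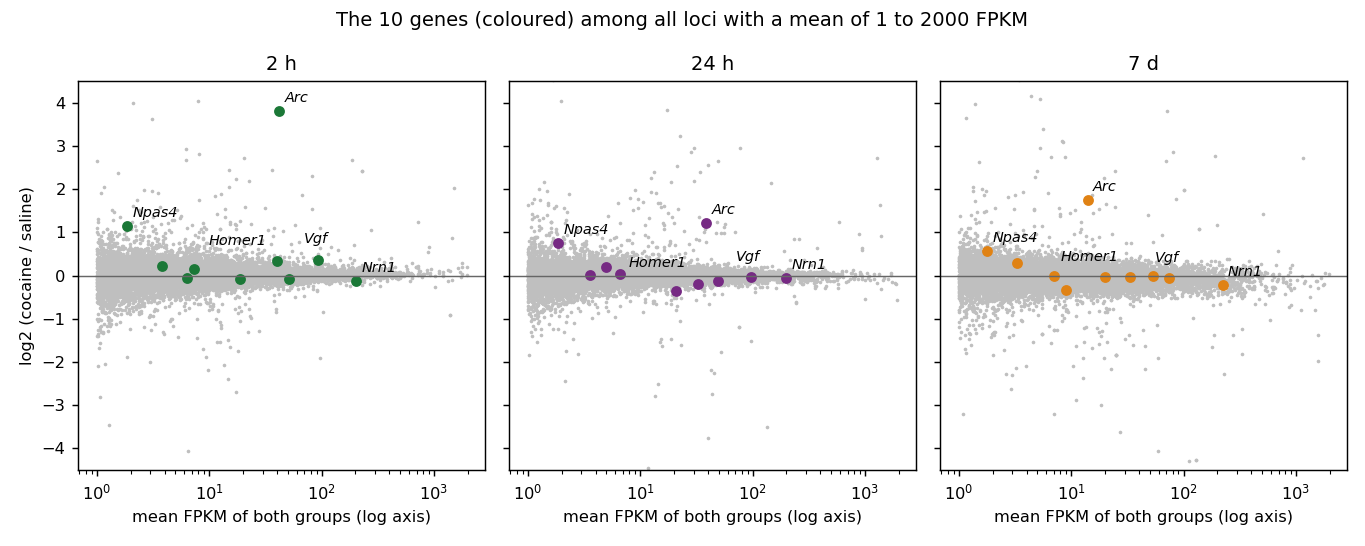
Log2 ratio of cocaine over saline against mean FPKM of both groups (log axis) for all loci (grey) and the 10 genes (coloured) at each time point. Loci above 2000 FPKM (58, 68 and 63 at 2 h, 24 h and 7 d) and beyond a log2 ratio of 4.5 (3, 10 and 7) are not drawn; Arc stands apart from loci of its level at each time point, and most of the other genes lie within the grey cloud.

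The genes around these 10 were taken from lists of partners, receptors and enzymes, 74 genes in 9 lists, with no member among them. At 2 h, 16 of the 70 with a mean of at least 1 FPKM were at least 1.5-fold higher in cocaine and 0 lower. Of these, 9 were among the 10 immediate-early transcription factors and 5 among 12 other activity-regulated effectors, which left 2 of the 48 partner genes, near the 2.26% of all loci. At 24 h 6 of 70 were higher and 1 lower, all of them immediate-early factors, and 0 of 48 partner genes passed the fold in either direction, against 2.85% of all loci. At 7 d 5 of 66 were higher and 0 lower, of which 1 stood among 47 partner genes, near the 1.41% of all loci. The plot of the lists shows the shift at 2 h for the immediate-early factors and the effectors, while most partner genes lie between the lines at 1.5-fold.

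**Figure D4:**
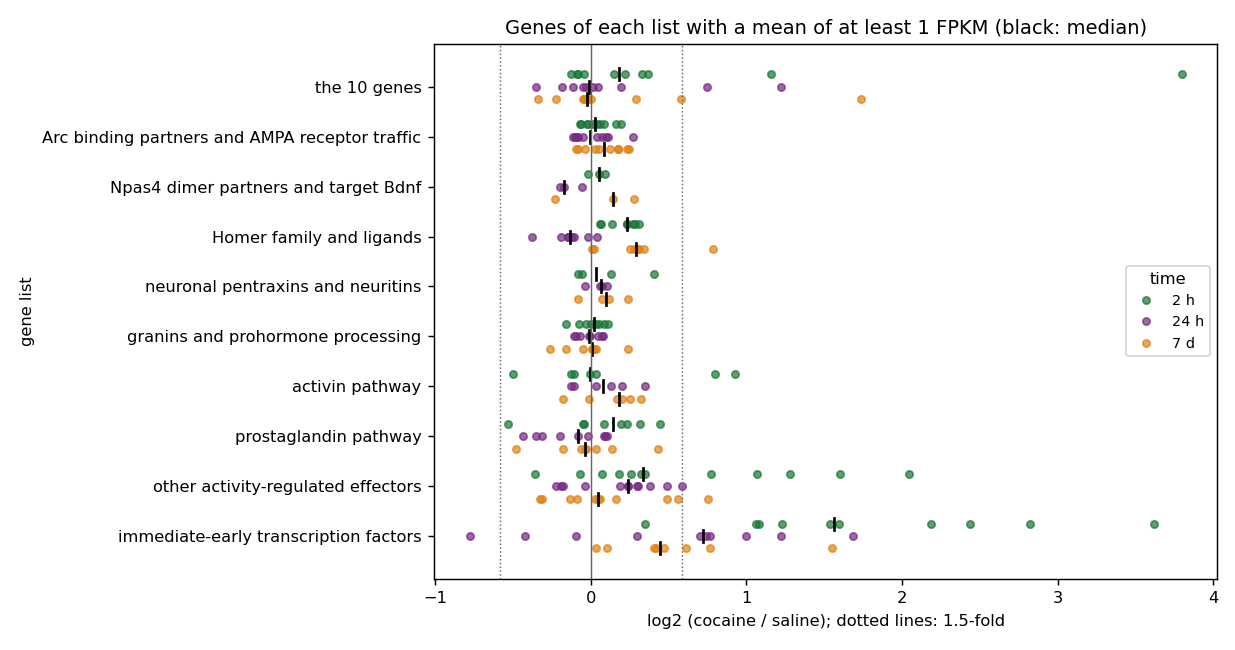
Log2 ratio of cocaine over saline for each gene with a mean of at least 1 FPKM, by list and time point (colours), with black ticks for the medians and dotted lines at 1.5-fold. The immediate-early factors have medians of 1.56, 0.72 and 0.44 in order of time, against 0.18, -0.01 and -0.03 for the 10 genes.

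None of the 10 genes that bind Arc or act in AMPA receptor traffic, the AMPA receptor subunits Gria1, Gria2 and Gria3 among them, was 1.5-fold different at any time point, and their median log2 ratios were 0.03, 0.00 and 0.09. The same held for the partners and a known target of Npas4: Arnt2 stood at 70.1 FPKM against 69.2 (saline first) at 2 h, and Bdnf, the neurotrophin, at 7.55 against 8.05. Bdnf later stood at 7.61 against 6.62 (24 h) and 8.01 against 6.84 (7 d). In the Homer list, all 8 genes were above saline at 2 h (median log2 ratio 0.23), 1 of 8 at 24 h (-0.13) and all 8 at 7 d (0.29), where the shares of all loci above saline were 56.1%, 53.1% and 47.6%. The 24 h and 2 h signs match those of Homer1 itself, whereas at 7 d Homer1 was at -0.03. Of this list 1 gene passed 1.5-fold, the postsynaptic scaffold Shank1 at 7 d, at 39.1 FPKM against 67.5.

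Nptx1, the other secreted neuronal pentraxin, was higher in cocaine at 2 h at 51.9 FPKM against 68.7 (log2 ratio 0.41), at a time when Nptx2 was not. Their receptor Nptxr had 374 and 408 FPKM. The 8 granin and processing genes kept close to a ratio of 1, with medians of 0.02, -0.01 and 0.01 and none different by 25% at any time point. Among them Pcsk2, the second neuronal convertase, stood at 128 FPKM against 131 at 2 h. Both partner genes past 1.5-fold at 2 h came from the activin list: Inhbb, which encodes another activin subunit, had 1.76 FPKM in saline and 3.34 in cocaine, and Fst, which encodes the activin antagonist follistatin, had 0.984 and 1.71. The count for this list was 2 of 7 genes over the minimum, against 2.26% of all loci. Both were scarce, and ratios scatter more at such levels. Among loci within 2-fold of the mean FPKM of Npas4, a range that holds both genes, 8.14% differed by 1.5-fold or more in either direction. Inha, in the same list, was lower in cocaine, at 5.23 FPKM against 3.70. No prostaglandin gene over the minimum passed 1.5-fold. Ptges, which acts after Ptgs2, stood at 1.70 FPKM against 2.31 (2 h) and 2.74 against 2.03 (24 h).

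Only genes with a mean of at least 1 FPKM were counted here. The effectors past 1.5-fold at 2 h were Dusp1 (ratio 4.14), Sik1 (3.03), Ier2 (2.43), Btg2 (2.09) and Gadd45b (1.71). At 7 d it was Dusp1 (1.68), while Sik1 had a ratio of 1.53 with a mean under the minimum. Dusp1 is a phosphatase of MAP kinases and Sik1 a kinase that restrains CREB signaling. The immediate-early factors past the fold at 2 h ran from Egr2 (ratio 12.3) and Fos (7.06) to Nr4a2 (2.09), with Egr3 short of it. Higher at 24 h were Egr2, Fos, Egr1, Nr4a3, Junb and Nr4a1, with ratios from 3.21 to 1.63, and Nr4a2 was lower (0.583). At 7 d the factors past the fold were Fos (2.93), Egr1 (1.70) and Nr4a1 (1.53). Egr2 had a larger ratio at 7 d (3.64), but its mean lay under the minimum and it was not counted.

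The genes with the pattern most like that of Arc and of Npas4 were found by the distance between the log2 ratios of the 3 time points, over 13517 other genes with a mean of at least 1 FPKM at each. This is a description over 3 values per gene. Nearest to Arc was Fos, with log2 ratios of 2.82, 1.23 and 1.55 and a distance of 0.99. After it came Gm13392 (distance 1.38), Junb (1.92) and the locus named for both Ftl2 and Mir692-3 (1.97). Ftl2 is a near copy of a ferritin gene, so its reads may belong elsewhere. Npas4 had closer company: Gpr3, a receptor that raises cAMP, at 0.15, the nuclear protein gene Csrnp1 at 0.18, the ERK phosphatase gene Dusp5 at 0.20, the growth factor signaling inhibitor gene Spry4 at 0.25 and Gm11772 at 0.31. Gpr3, Csrnp1, Dusp5 and Spry4 were all at log2 ratios between 1.11 and 1.35 at 2 h, against 1.16 for Npas4. Each of the 5 lay nearer to Npas4 than Fos lay to Arc. Arc held rank 5 of 13683 loci at 2 h, so few loci had ratios near its own. The distances therefore do not say which of the 2 patterns is more widely shared.

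Markers of the tissue were present in every group: the summed FPKM of 5 genes of cortical excitatory neurons lay between 557 and 634 over the 6 groups, with cocaine over saline from 1.02 to 1.03. The ratio was 0.920 to 0.984 for 6 genes of inhibitory neurons, 1.02 to 1.05 for 8 of striatal neurons, 0.942 to 1.07 for 5 of microglia and 1.01 to 1.15 for 5 of endothelial cells. The striatal sum was mostly Penk and Ppp1r1b, and some of its scarcer genes lay away from it: Tac1 had a ratio of 0.649 and Adora2a of 1.68 at 7 d, and at 2 h Drd1a, Drd2 and Rgs9 had 0.70, 0.69 and 0.73, with Drd1a and Drd2 under 1 FPKM in all 6 groups. The 6 oligodendrocyte genes stood lower in cocaine at 24 h, with a ratio of 0.833. At that time point 5 of the 10 genes (Nptx2, Homer1, Scg2, Nrn1 and Vgf) were below saline and 5 above it. This was near the share of all loci, of which 53.1% were above saline. The sum of 5 choroid plexus genes was between 3.30 and 9.56 FPKM, with a ratio of 2.78 at 7 d that came from Ttr (0.284 in saline and 6.54 in cocaine). The part of these cells in the ratios of the 10 genes was not tested.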

How the data were processed

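Per the labels and the methods, RNA of 12 prefrontal cortex libraries was sequenced, and the authors trimmed the reads (the processing notes name Trimmomatic 0.32, the methods cutadapt), aligned them with TopHat2 (2.0.12 in the notes), kept uniquely mapped reads and ran Cufflinks (2.2.1 in the notes) and Cuffdiff. The deposited tables hold FPKM per group, pooled over 2 libraries and scaled within each table, and the authors' own fold changes, test statistics, p values and q values, which were not used. The column headers do not spell out the treatment, since "C" stands for cocaine in the sample labels but heads the saline column in the tables. The columns were assigned as the study's supplementary tables list saline and cocaine. Positions are 1-based and on GRCm38, which the processing notes name (the methods name mm9).

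The ratio of cocaine over saline was taken with no pseudocount, and all loci with a mean of at least 1 FPKM and no group at 0 were the background. A gene counted as different at 1.5-fold or more. With several loci per name, the locus with the higher mean FPKM was used. Besides the 10 genes, those named were list genes past 1.5-fold, direct partners of the 10 genes, and the 5 genes nearest to Arc and to Npas4. Genes and lists were chosen with earlier results of these data known. Python 3.11.15, pandas 2.3.3, numpy 2.4.6 and matplotlib 3.10.9 were used. The steps were run on simulated data with less scatter than the real ratios, which checks the code and not the counts at 1.5-fold. Alternatives were other folds, pseudocounts, filters, centring, removal of the trend over transcript length (20 groups, GENCODE M1 lengths) and the choice of locus.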

Additional observations from a re-analysis of the deposited data

Results flagged for a closer look

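Homer1 was above saline at 2 h and below it at 24 h, and its log2 ratio at 2 h exceeded that at 24 h by 0.52. It drew notice because the direction differed between time points with at least 25% on one side and 1.1-fold on the other. Inhba, at the locus with the higher FPKM, was above saline at 24 h and below it at 7 d, a difference of 0.53 on the log2 scale. At its other locus the signs were the opposite ones. Neither difference was tested, since each group has 1 pooled value.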

How the results depend on the processing

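No paired analysis was possible because each group has 1 pooled value, and for the same reason no library could be left out. For single genes, 146 of 153 alternative log2 ratios moved by less than the spread of all loci at that time point (its scaled median absolute deviation), 7 moved more and 0 of the ratios past 1.5-fold changed sign. The 7 were Npas4 at each time point and Arc at 2 h (3.58) with a pseudocount of 1 FPKM, and Inhba at its other locus, an alternative added after the data were seen, where the sign was the opposite one at 24 h and 7 d. Of 75 alternative counts and medians 66 stayed and 9 moved. Some alternatives could not move any value, and the numbers that stayed include them. Each gene but Inhba had 1 locus and the Inhba pair shared its span, so taking the longest locus changed nothing. Every gene passed the filter on low values, so dropping it changed no count or median. A pseudocount cannot change the sign of a ratio. The number of genes at least 1.5-fold higher at 2 h went from 2 to 4 with a fold set at 25% and to 1 with a minimum of 5 FPKM, which removes Npas4. At 24 h it went from 2 to 1 with a fold of 2, a pseudocount of 1 FPKM or a minimum of 5 FPKM. At 7 d it went from 1 to 2 with a fold set at 25% or with ratios centred on the median of all loci, which carries Npas4 over the fold. The number of genes lower went from 0 to 1 with a fold set at 25% at 24 h and at 7 d. Taking out the trend over transcript length, which spanned -0.23 to 0.14 on the log2 scale at 7 d, left every count at 1.5-fold as it was. It moved Nrn1 at 7 d from -0.22 to -0.11. It also changed the sign of 2 ratios near 0, Scg2 at 7 d (-0.018 to 0.012) and Ptgs2 at 24 h (0.012 to -0.008). The numbers of genes above saline by any amount at these time points therefore depend on it. The paper gives the reads per library only as a range, and there are no replicate values. The precision of the low levels of Npas4 and Ptgs2 therefore cannot be given.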

Other observations

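Some other activity-regulated genes also had a higher saline level at 24 h, the time point at which saline Arc was highest, although the tables were normalized separately. Of 9 immediate-early factors with a mean of at least 1 FPKM, 7 were higher in saline at 24 h than at 2 h and 4 of these by 1.5-fold or more, and 9 were higher at 24 h than at 7 d, 6 of them by that fold. Of all genes, 2.26% were 1.5-fold higher in saline at 24 h than at 2 h and 3.22% than at 7 d. Fos had 2.02, 3.95 and 1.59 FPKM in saline at 2 h, 24 h and 7 d, Nr4a1 8.05, 15.4 and 8.47, and the phosphatase gene Dusp1 5.85, 11.9 and 6.14. Npas4 did not share this order, with 1.15, 1.38 and 1.44 FPKM. Of 12 other activity-regulated effectors, 8 were higher in saline at 24 h than at 2 h, 3 of them by 1.5-fold or more. At 24 h 7 were higher than at 7 d, 2 of them by that fold. The median log2 ratio of all genes was 0.02 in both comparisons, so the larger part of all genes was also higher at 24 h by some amount. These genes were set side by side after their values had been seen, and no test was possible.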
